A study of Mus musculus with 15 samples.

Results

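The globin genes of the mouse stomach transcriptome were followed together with Alas2, which encodes the erythroid enzyme that starts haem synthesis. Members were taken by gene symbol: Hbb-y, Hbb-bh1, Hba-x, Hba-a1, Hba-a2, Alas2 and every other symbol that begins with Hbb-b. This gave 13 of the 44788 symbols in the gene tables, and 9 of the 13 reached an FPKM (fragments per kilobase of transcript, scaled to the number of mapped fragments) of at least 1 at some timepoint. Hbb-bh0 and Hbb-bh3 were listed at 0 at all 15 timepoints, Hbb-bh2 reached 0.145 FPKM at E13.5 and Hbb-b2 reached 0.0704 FPKM at E15.5. These 4 genes entered no test.

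Whole stomachs of C57BL/6 mice were sequenced at 15 timepoints, with 1 transcriptome for each. The 7 embryonic days ran from E12.5 to E18.5 in steps of 1 day, the 3 postnatal days were D1, D3 and D5, and the 5 postnatal weeks were W1, W2, W3, W6 and W8. The labels name no genetic change and no treatment. A replicate was pooled from the stomachs of several embryos through E17.5 and came from a single mouse at later timepoints, according to the study's reporting summary, which is not specific to RNA. By the same summary, sex was not distinguished through W2, and the stomachs of W3, W6 and W8 came from males. Stomachs were rinsed in buffered saline to remove blood before use, according to the study's methods, so globin RNA was measured in a washed organ. Timepoints served as the replicates of a period in the tests, and p-values measure the spread between timepoints, which includes change over time.

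Haemoglobin is built from alpha-type and beta-type globin chains around haem. The first red cells of the mouse arise in the yolk sac and carry the embryonic chains, Hbb-y (epsilon-y) and Hbb-bh1 (beta-h1) on the beta side and Hba-x (zeta) on the alpha side. Red cells made later in the fetal liver and then in the bone marrow carry the adult chains, Hba-a1 and Hba-a2 on the alpha side and Hbb-bs and Hbb-bt on the beta side. This is an outline of the main chains, and adult globin RNA alone does not tell which red cells held it. The source of the red cells was not tested here. Yolk sac red cells shed their nuclei in the circulation during mid-gestation, and young red cells keep globin RNA for a time after the nucleus is gone.

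The members lie in 2 clusters and on the X chromosome, in coordinates of GRCm38, the build named in the submitters' notes. On the minus strand of chromosome 7 the files place Hbb-y at chr7:103851754-103853207, Hbb-bh1 at chr7:103841638-103843162, Hbb-bh2 at chr7:103838819-103840521, Hbb-bh3 at chr7:103832628-103833732, Hbb-bs at chr7:103826523-103827928 and Hbb-bt at chr7:103812524-103813923. In the direction of transcription this runs from the embryonic to the adult genes. On the plus strand of chromosome 11 the order is the same, with Hba-x at chr11:32276600-32278116, Hba-a1 at chr11:32283672-32284486 and Hba-a2 at chr11:32296492-32297310. Alas2 lies on the plus strand at chrX:150547417-150570622. The first transcript of Alas2 in GENCODE M21 has 11 exons and those of the major globin genes have 3. Hbb-b1, Hbb-b2 and Hbb-bh0 are listed only on a separate scaffold, which also holds second entries for Hbb-y, Hbb-bh1, Hbb-bh2 and Hbb-bh3. Hbb-b1 and Hbb-b2 are the names of the adult genes of the other common beta globin haplotype of laboratory mice.

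The promoters below show which short control words the embryonic and adult genes share, since the members split into 2 groups by their course over time. Each line gives the 150 bases upstream of the start of the gene, on the gene's strand, from RefSeq on GRCm38.p6, with matches in capitals. The word CACCC was searched on both strands, as were the word CCAAT and the word GATAA. The word TATAA and the word ATAAA, which can overlap each other, were searched on the strand of the gene only. Of the 13 members, 8 had a promoter in the RefSeq table.
Hbb-y (embryonic), chr7:103853208-103853357, minus strand: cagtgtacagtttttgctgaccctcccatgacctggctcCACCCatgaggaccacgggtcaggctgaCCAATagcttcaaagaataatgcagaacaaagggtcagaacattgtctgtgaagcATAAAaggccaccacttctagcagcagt
Hba-x (embryonic), chr11:32276450-32276599, plus strand: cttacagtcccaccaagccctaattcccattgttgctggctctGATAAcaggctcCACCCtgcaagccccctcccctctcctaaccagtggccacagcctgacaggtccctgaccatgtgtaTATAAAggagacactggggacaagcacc
Hbb-bs (adult), chr7:103827929-103828078, minus strand: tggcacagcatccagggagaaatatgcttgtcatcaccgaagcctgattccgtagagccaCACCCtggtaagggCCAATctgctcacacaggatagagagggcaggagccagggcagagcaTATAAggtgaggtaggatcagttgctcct
Hbb-bt (adult), chr7:103813924-103814073, minus strand: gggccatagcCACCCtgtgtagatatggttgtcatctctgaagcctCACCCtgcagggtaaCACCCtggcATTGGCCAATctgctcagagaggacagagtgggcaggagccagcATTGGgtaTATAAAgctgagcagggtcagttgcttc
Hba-a1 (adult), chr11:32283522-32283671, plus strand: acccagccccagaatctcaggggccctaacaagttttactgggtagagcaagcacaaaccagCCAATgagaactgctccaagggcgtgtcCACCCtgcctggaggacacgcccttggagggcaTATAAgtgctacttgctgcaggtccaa
Alas2 (haem synthesis), chrX:150547267-150547416, plus strand: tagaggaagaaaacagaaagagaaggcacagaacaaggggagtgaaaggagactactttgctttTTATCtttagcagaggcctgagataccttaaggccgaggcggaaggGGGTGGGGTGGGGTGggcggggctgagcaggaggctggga

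CACCC, a word bound by Krüppel-like factors such as KLF1, was found in 7 of the 8 member promoters, and 37.4% of the 32851 promoters in the table hold it in the same window. CCAAT was found in 5 of 8, against 24.5% of all windows. Hba-x is the embryonic gene with no CCAAT here, and it holds GATAA, the core of the word bound by GATA factors, which was found in 2 of 8 members (Hba-x and Alas2) and in 13.3% of all windows. TATAA was found in 5 of 8 members and in 9.99% of all windows, and ATAAA in 3 of 8 and in 15.1%. Hbb-y has ATAAA at 28 bases before the start, and Hbb-bs has TATAA at 29 bases before it. In Hbb-bt CACCC occurred 3 times and CCAAT also 3 times. A match describes these letters and is no evidence of binding. The promoters of Hba-a1 and Hba-a2 were identical over 297 of 297 compared bases once shifted by 3 bases.

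The near-identity of some members limits how far single genes can be told apart. In GENCODE M21, the coding sequences of Hba-a1 and Hba-a2 differ at 1 of 429 bases, and those of Hbb-bs and Hbb-bt at 1 of 444 bases. Of the 50-base words in the Hba-a2 transcript, 86.9% also occur in that of Hba-a1, and 65.8% of the words of Hbb-bs occur in Hbb-bt. The split of reads within these 2 pairs is therefore uncertain. No 50-base word of Hbb-y, Hbb-bh1 or Hba-x occurs in an adult transcript of its own cluster, so the comparison of embryonic with adult globins does not rest on that split. It does depend on how reads that map to both genes of a pair were counted, which is not given. The embryonic shares and the alpha to beta ratios below carry this uncertainty. The coding sequence of Hbb-y is 76.4% identical to that of Hbb-bh1 and 74.3% to that of Hbb-bs, and that of Hba-x is 62.0% identical to that of Hba-a1.

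The embryonic beta globin Hbb-y was at 3298 FPKM at E12.5, where it ranked 26th among all symbols. It was then at 1360 FPKM at E13.5, 583 FPKM at E14.5, 115 FPKM at E15.5, 6.44 FPKM at E16.5, 2.34 FPKM at E17.5 and 2.26 FPKM at E18.5. After birth its lowest, median and highest values over 8 timepoints were 0.884, 1.503 and 2.12 FPKM. Each embryonic day was thus lower than the one before. All 7 embryonic values lay above all 8 postnatal ones in unscaled FPKM, by a margin of 2.26 against 2.12 FPKM. The confidence bounds of the files overlapped there, at 1.09 to 3.46 FPKM at E18.5 and 1.09 to 3.18 FPKM at D5. Those of E17.5 (1.15 to 3.63 FPKM) and E18.5 overlapped too. The step between days was uneven, with a 2.43-fold fall from E12.5 to E13.5, a 2.33-fold fall to E14.5, a 5.09-fold fall to E15.5 and a 17.8-fold fall to E16.5. From E12.5 to E16.5 the level fell 512-fold, or between 373-fold and 796-fold when the confidence bounds of the files are set against each other. These bounds cover counting error only, and the tables do not give the depth of sequencing.

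The embryonic alpha globin Hba-x followed the same course at a lower level. It was at 420 FPKM at E12.5, 198 FPKM at E13.5, 97.8 FPKM at E14.5, 25.8 FPKM at E15.5, 2.06 FPKM at E16.5, 0.163 FPKM at E17.5 and 0.158 FPKM at E18.5. The lowest, median and highest postnatal values were 0.1201, 0.215 and 0.741 FPKM, the last at D1. Embryonic and postnatal values overlapped, and the lower confidence bound was 0 at both E17.5 and E18.5. As for Hbb-y, the steps were small at first (2.12-fold from E12.5 to E13.5 and 2.02-fold to E14.5) and large later (3.79-fold to E15.5 and 12.52-fold to E16.5). From E12.5 to E16.5 the fall was 204-fold, or 119-fold to 597-fold by the bounds.

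The second embryonic beta globin, Hbb-bh1, was the lowest of the 3 and left first. It was at 55.3 FPKM at E12.5, 12.2 FPKM at E13.5 and 2.84 FPKM at E14.5, a 19.5-fold fall in 2 days (11.9-fold to 40.5-fold by the bounds). It was listed at 0 at E15.5, at 0.398 FPKM at E16.5 and at 0 at E17.5 and E18.5. Of the 8 postnatal transcriptomes, 6 listed it at 0, and W1 and W2 had 0.134 and 0.135 FPKM.

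The question of how the globin genes changed before birth was tested with limma as a slope of log2(FPKM + 1) on embryonic day over the 7 embryonic timepoints, with Benjamini-Hochberg adjustment over 16902 genes and a threshold of 0.01. All 3 embryonic globins fell: Hbb-y by 1.91 per day (SE 0.171, adjusted p = 0.000341), Hba-x by 1.62 per day (SE 0.133, adjusted p = 0.000283) and Hbb-bh1 by 0.94 per day (SE 0.185, adjusted p = 0.00511). The slope counts were therefore 3 of 9 tested members lower and 0 of 9 higher, where 25.0% of all genes were called lower and 14.3% higher. The 5 adult globins and Alas2 did not pass the test, and their slopes lay between -0.04 for Hba-a1 (SE 0.064, adjusted p = 0.617) and 0.15 for Hbb-bs (SE 0.102, adjusted p = 0.259). The median slope over all genes was -0.03 per day. The calls of Hbb-y and Hba-x held when any 1 embryonic timepoint was left out, with adjusted p values up to 0.00250 and 0.00219. The call of Hbb-bh1 was lost without E12.5, E13.5, E16.5 or E17.5 (adjusted p between 0.0123 and 0.0271).

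**Figure D1:**
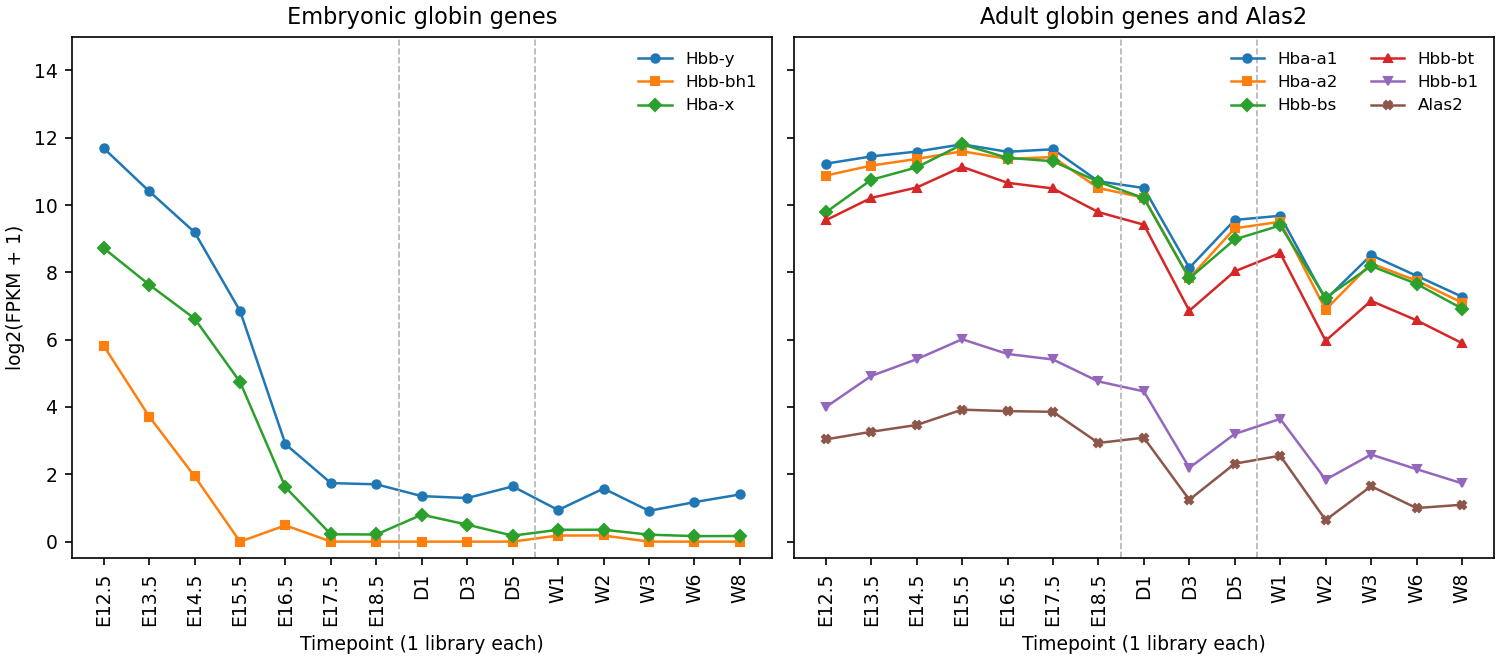
Levels of the 9 tested members as log2(FPKM + 1) at each of the 15 timepoints, 1 library each, with the embryonic globins on the left and the adult globins and Alas2 on the right; dashed lines part embryonic days, postnatal days and postnatal weeks. The embryonic globins ran down to 2.34 FPKM or less by E17.5, while the adult genes stayed high through E17.5 and were lower after birth, with low points at D3 and W2.

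The adult alpha globins were already abundant at E12.5. Hba-a1 was at 2398 FPKM at E12.5, 2785 FPKM at E13.5, 3080 FPKM at E14.5, 3576 FPKM at E15.5, 3065 FPKM at E16.5, 3228 FPKM at E17.5 and 1669 FPKM at E18.5. After birth it was at 1452 FPKM at D1, 279.7 FPKM at D3 and 752 FPKM at D5. In the postnatal weeks it was at 820.0 FPKM at W1, 145 FPKM at W2, 364 FPKM at W3, 238 FPKM at W6 and 154 FPKM at W8. The highest value was at E15.5, and the postnatal course was not even: D3 and W2 were each lower than the timepoints on either side. All 7 embryonic values lay above all 8 postnatal values, with 1669 FPKM at E18.5 as the lowest before birth and 1452 FPKM at D1 as the highest after it. Hba-a2 ran in parallel, with 1879 FPKM at E12.5, a highest value of 3097 FPKM at E15.5 and 136 FPKM at W8.

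The adult beta globins started lower relative to their own peak. Hbb-bs was at 880.3 FPKM at E12.5, 1720.4 FPKM at E13.5, 2223 FPKM at E14.5, 3568 FPKM at E15.5, 2708 FPKM at E16.5, 2523 FPKM at E17.5 and 1651 FPKM at E18.5. It was at 1181 FPKM at D1, 225 FPKM at D3 and 504 FPKM at D5, and then at 671 FPKM at W1, 151 FPKM at W2, 291 FPKM at W3, 201 FPKM at W6 and 121 FPKM at W8. Between E12.5 and E15.5 the value thus grew at every step, by 1.95-fold in the first day, and the D1 value lay above that of E12.5, so embryonic and postnatal ranges overlapped. Hbb-bt was at 748 FPKM at E12.5, 2248 FPKM at E15.5 and 58.6 FPKM at W8. Its embryonic values all lay above its postnatal ones in unscaled FPKM, the highest of which was 682 FPKM at D1. Hbb-b1, the scaffold entry, stayed between 1.58% and 1.93% of Hbb-bs at all 15 timepoints.

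From E15.5 to W8 the summed FPKM of the adult globins fell 26.6-fold, from 12552 to 472 (24.5-fold to 28.9-fold by the bounds). Single genes fell by between 22.7-fold (Hba-a2) and 38.3-fold (Hbb-bt). These folds depend on the scale of the libraries, which the bounds do not cover. The factors of median-ratio scaling were 1.23 at E15.5 and 0.705 at W8, so dividing by them would make the folds smaller. In bulk RNA, fewer red cells and less globin RNA per cell cannot be told apart. The globins together made up 1.26% of all FPKM at E12.5, 1.55% at E15.5, 0.668% at E18.5, 0.499% at D1, 0.0974% at D3 and 0.0422% at W8.

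The embryonic share of globin FPKM, which does not depend on the scale of a transcriptome, ran down over 4 days. Hbb-y, Hbb-bh1 and Hba-x made up 38.9% of the globin FPKM at E12.5 (38.1% to 39.8% by the bounds), 16.4% at E13.5, 6.75% at E14.5, 1.11% at E15.5 and 0.0881% at E16.5. The share was lowest at E17.5, at 0.0251% (0.0113% to 0.0420%). As ratios of embryonic to adult FPKM, these were 0.637 at E12.5, 0.196 at E13.5, 0.0723 at E14.5 and 0.0112 at E15.5.

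The switch stood at different points on the 2 sides. Among the beta-type genes the embryonic share was 67.1% at E12.5, 31.9% at E13.5, 13.6% at E14.5, 1.91% at E15.5 and 0.156% at E16.5. Among the alpha-type genes it was 8.94% at E12.5, 3.74% at E13.5, 1.68% at E14.5, 0.385% at E15.5 and 0.0360% at E16.5. At E12.5 embryonic beta globins were thus ahead of the adult ones, 3354 against 1643 FPKM, whereas embryonic alpha globin was already behind, 420 against 4276 FPKM. From E12.5 to E15.5 the beta share was above the alpha share at each timepoint by more than the confidence bounds. The ratio of Hbb-y to Hba-x within a library was 7.86 at E12.5, 6.88 at E13.5, 5.97 at E14.5, 4.45 at E15.5 and 3.13 at E16.5. The ratio at E16.5 ran from 1.24 to 11.96 by the bounds, and the values at E17.5 and E18.5 (both 14.3) had no upper bound, since the lower bound of Hba-x was 0 there.

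**Figure D2:**
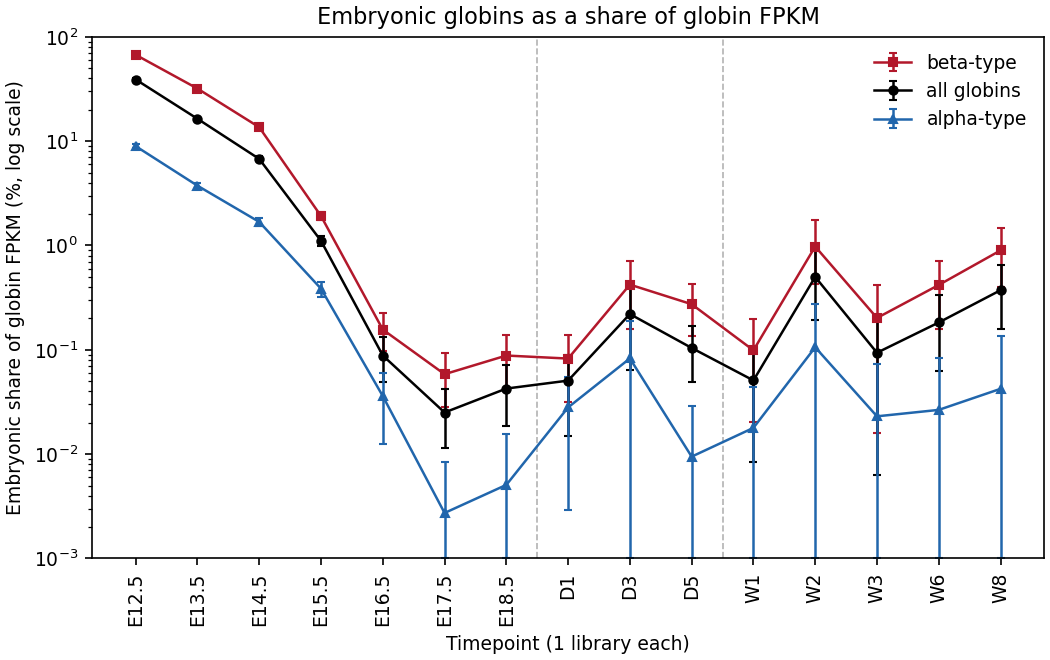
Embryonic globins as a percentage of globin FPKM (log scale) at each timepoint, for all globins, the beta-type genes (Hbb) and the alpha-type genes (Hba), 1 library each; bars run between the shares obtained from the confidence bounds of the files, and lower bounds under the axis limit end at the axis. The share of all globins was 38.9% at E12.5 and 0.0251% at E17.5, and the beta-type share lay above the alpha-type share at every timepoint. The bounds of the beta-type and alpha-type shares overlapped at D1, D3, W1 and W3, where the embryonic globins were near 0.

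After birth the embryonic share was small and did not run in 1 direction. It was 0.0506% at D1, 0.220% at D3, 0.104% at D5, 0.0508% at W1, 0.499% at W2, 0.0937% at W3, 0.183% at W6 and 0.372% at W8. The high values at D3, W2 and W8 were timepoints with low adult globins (849, 478 and 472 FPKM). Hbb-y itself stayed between 0.884 and 2.12 FPKM over these 8 timepoints, with a lower confidence bound above 0 at each, while the adult globins ranged from 472 to 4528 FPKM.

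The difference between the 3 postnatal days and the 7 embryonic days was tested in 1 limma fit over all 15 timepoints. These groups also differ in age, so an effect of birth and one of age cannot be told apart. From E18.5 to D1 the adult globins fell between 1.15-fold (Hba-a1) and 1.40-fold (Hbb-bs), and Alas2 was 1.13-fold higher. From D1 to D3 the adult globins fell between 5.19-fold (Hba-a1) and 5.92-fold (Hbb-bt), and Alas2 fell 5.49-fold. At the threshold of 0.01, 0 of the 9 tested members were called, where 4.76% of all genes were called lower. Over all genes the calls were 805 lower and 409 higher, and 514 lower and 763 higher after median-ratio scaling. At an unadjusted p under 0.05 the number was 8 of 9, and 7832 of the 16902 genes. At an adjusted p under 0.05 it was 6 of 9, all lower after birth, where 21.2% of all genes were lower. These 6 were the 5 adult globins and Alas2. Hba-a1 differed by -2.03 on the log2(FPKM + 1) scale (SE 0.510, adjusted p = 0.0125), Hba-a2 by -2.07 (SE 0.519, adjusted p = 0.0124), Hbb-bt by -2.23 (SE 0.569, adjusted p = 0.0132), Hbb-bs by -1.98 (SE 0.549, adjusted p = 0.0182) and Hbb-b1 by -1.87 (SE 0.502, adjusted p = 0.0161). The median over all genes in the same comparison was -0.18. The 5 adult globins share reads or scale with each other and are not 5 independent observations. Hbb-y had the largest difference at -4.93, but also the largest SE (1.87), since it changed so widely within the embryonic days, and its adjusted p was 0.0571. Hba-x was at -3.76 (adjusted p = 0.0780) and Hbb-bh1 at -1.71 (adjusted p = 0.190). All embryonic values lay above all postnatal values in 4 of the 9 tested members, Hba-a1, Hba-a2, Hbb-bt and Hbb-y. The same held in 20.4% of all genes. These orders are of unscaled FPKM. The median-ratio factors were 1.24 at E12.5, 1.08 at E18.5, 0.993 at D1 and 0.705 at W8. Dividing by them would end the order for Hbb-bt and for Hbb-y.

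**Figure D3:**
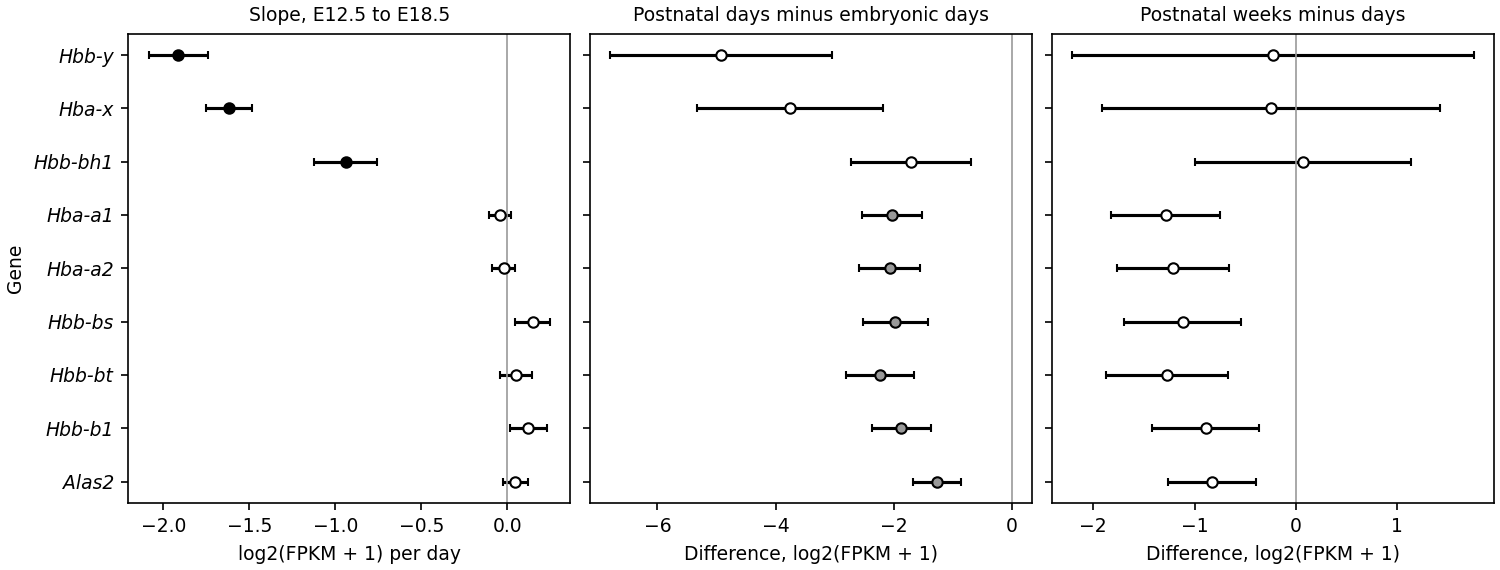
Slope per embryonic day (left), difference between postnatal days and embryonic days (middle) and difference between postnatal weeks and postnatal days (right) for the 9 tested members on the log2(FPKM + 1) scale; points are limma estimates, bars are standard errors, and fill gives the adjusted p (black under 0.01, grey under 0.05, white above). The 3 embryonic globins had black points in the slope, and the adult globins and Alas2 had grey points, all below 0, in the comparison across birth.

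From the postnatal days to the postnatal weeks the adult globins were lower by 0.89 to 1.29 on the log2 scale, which did not pass the test. Since W3, W6 and W8 were from males and sex was not distinguished earlier, age and sex cannot be told apart here. The median over all genes was -0.31, or -0.07 after median-ratio scaling. At an adjusted p under 0.01, limma called 0 of 9 members and 0.0% of all genes, and 6896 of all genes and 2 of the members had an unadjusted p under 0.05. At an adjusted p under 0.05, 0 of 9 members and 10.2% of all genes were lower. Hba-a1 differed by -1.29 (SE 0.540, adjusted p = 0.0959) and Hbb-bt by -1.27 (SE 0.602, adjusted p = 0.126). Without W1 the differences were larger, and 5 of 9 members had an adjusted p under 0.05, Hba-a1 (-1.68, adjusted p = 0.0181), Hba-a2 (-1.61, 0.0219), Hbb-bt (-1.70, 0.0255), Hbb-bs (-1.50, 0.0435) and Alas2 (-1.12, 0.0398). The W1 value of Hba-a1 (820.0 FPKM) lay above those of D3 and D5, and the values from W2 on lay between 145 and 364 FPKM.

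The 2 sides of haemoglobin kept within 0.940 and 1.79 of each other at all 15 timepoints. The ratio of summed alpha-type to summed beta-type FPKM was 0.940 at E12.5 (0.905 to 0.976 by the bounds), 1.23 at E13.5, 1.35 at E14.5, 1.12 at E15.5, 1.31 at E16.5, 1.49 at E17.5 and 1.22 at E18.5. It lay between 1.40 and 1.79 in the postnatal days and between 1.21 and 1.59 in the postnatal weeks. E12.5 was the timepoint below 1, with embryonic Hbb-y making up most of the beta side.

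Within the adult beta pair, Hbb-bs gained on Hbb-bt before birth. The ratio of Hbb-bs to Hbb-bt was 1.18 at E12.5 (1.12 to 1.24), 1.45 at E13.5, 1.51 at E14.5, 1.59 at E15.5, 1.67 at E16.5, 1.75 at E17.5 and 1.87 at E18.5 (1.79 to 1.95). Each embryonic day was above the one before, and the ratio lay between 1.73 and 1.95 in the postnatal days and between 1.77 and 2.44 in the postnatal weeks. The ratio of Hba-a1 to Hba-a2 moved less, from 1.28 at E12.5 to 1.15 at E18.5, with values between 1.11 and 1.24 after birth. Both ratios carry the uncertainty of reads shared within the pair.

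**Figure D4:**
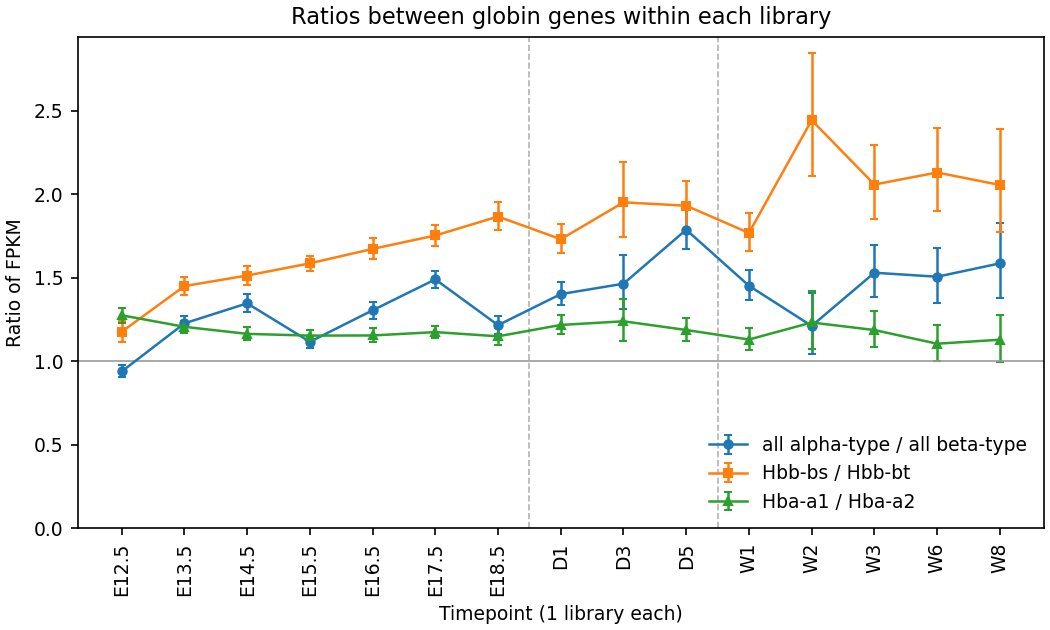
Ratios of FPKM within each library at the 15 timepoints for all alpha-type over all beta-type globins, Hbb-bs over Hbb-bt and Hba-a1 over Hba-a2; bars run between the ratios obtained from the confidence bounds, and the grey line marks a ratio of 1. Hbb-bs over Hbb-bt ran from 1.18 at E12.5 to 1.87 at E18.5, while Hba-a1 over Hba-a2 stayed between 1.11 and 1.28.

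Alas2, which makes the first haem precursor in red cells, ran with the adult globins at a far lower level. It was at 7.21 FPKM at E12.5, 8.61 FPKM at E13.5, 10.05 FPKM at E14.5, 14.1 FPKM at E15.5, 13.7 FPKM at E16.5, 13.49 FPKM at E17.5 and 6.63 FPKM at E18.5. It was at 7.51 FPKM at D1, 1.37 FPKM at D3 and 3.98 FPKM at D5, and then at 4.87 FPKM at W1, 0.559 FPKM at W2, 2.13 FPKM at W3, 0.996 FPKM at W6 and 1.14 FPKM at W8. The low points at D3 and W2 were thus shared with the globins. Across birth it differed by -1.26 (SE 0.408, adjusted p = 0.0323). Its adjusted p was above 0.05 after median-ratio scaling (-1.03, adjusted p = 0.0677), with a pseudocount of 0.1 (0.0593) and with no filter on low values (0.0611). As a percentage of adult globin FPKM, Alas2 stood between 0.106% and 0.136% in the embryonic days, between 0.161% and 0.184% in the postnatal days and between 0.117% and 0.241% in the postnatal weeks. Over the 15 timepoints the log2 level of Alas2 had a Pearson r of 0.988 with that of the adult globin sum and of 0.499 with that of the embryonic globin sum, as a description of transcriptomes that share library and scale.

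All 9 enzymes of haem synthesis listed (Alas2 among them) were tested. Over the embryonic days 1 rose and 2 fell, where 14.3% of all genes rose and 25.0% fell. Cpox rose by 0.24 per day (SE 0.024, adjusted p = 0.000473), Urod fell by 0.16 per day (SE 0.018, adjusted p = 0.000576) and Ppox fell by 0.15 per day (SE 0.024, adjusted p = 0.00230). The call of Ppox was lost without E12.5, E13.5 or E18.5 (adjusted p between 0.0103 and 0.0167). These genes act in every cell that makes haem. None of the 9 was called across birth at 0.01, and 2 were lower at an adjusted p under 0.05, Alas2 and Uros (-0.48, adjusted p = 0.0260). Of all genes, 21.2% were lower at that limit. The median difference of the list was -0.11, against -0.18 over all genes.

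Among the 12 erythroid and globin switching factors, 10 were tested. Over the embryonic days 1 rose and 4 fell, against 14.3% and 25.0% of all genes. Bcl11a, a repressor of embryonic globin genes in adult red cells, fell by 0.19 per day (SE 0.022, adjusted p = 0.000760), with 21.8 FPKM at E12.5 and 10.3 FPKM at E18.5. Zbtb7a, another such repressor, rose by 0.30 per day (SE 0.023, adjusted p = 0.000239), from 7.21 to 25.6 FPKM. Both genes are also active outside the blood. Tal1 fell by 0.13 (adjusted p = 0.00288), Nfe2 by 0.11 (adjusted p = 0.00588) and Ldb1 by 0.14 per day (adjusted p = 0.000473), the first 2 at levels under 2 FPKM. Leaving out 1 day ended the calls of Tal1 (without E12.5, E13.5 or E18.5, adjusted p between 0.0109 and 0.0203) and Nfe2 (without E12.5, E13.5, E15.5, E17.5 or E18.5, between 0.0113 and 0.0261). Klf1, the erythroid Krüppel-like factor, lay between 0.293 and 1.17 FPKM in the embryonic days, and Gata1 between 0.0327 and 0.671 FPKM. The median slope of the list was -0.05 per day, against -0.03 over all genes, and 0 of the 10 were called across birth at 0.01.

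Of 11 genes of the red cell membrane, 6 reached 1 FPKM at some timepoint and were tested. Over the embryonic days 2 of them fell, against 25.0% of all genes. Slc4a1, the anion exchanger of the red cell membrane, fell by 0.27 per day (SE 0.025, adjusted p = 0.000372), with 3.75 FPKM at E12.5 and 0.532 FPKM at E18.5. Epb4.1, a cytoskeletal linker found in many cells, fell by 0.11 per day (adjusted p = 0.00749, and 0.0521 after median-ratio scaling), a call lost without any 1 of the days from E12.5 to E17.5. Of 9 late precursor genes tested, Tfrc, the transferrin receptor of dividing cells, rose by 0.25 per day (adjusted p = 0.000825). Across birth Trim58 rose by 0.91 (adjusted p = 0.00475), at levels up to 1.55 FPKM, and its call was lost without E13.5, E14.5, E15.5, D1, D3 or D5 (adjusted p between 0.0113 and 0.0282). The adult globins were between 5680.4 and 12552 FPKM in sum in the embryonic days.

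Of the 6 other globin symbols in the fixed list, 4 were tested. Ngb, the globin of neurons, rose by 0.30 per day (SE 0.018, adjusted p = 0.000192) and again across birth by 2.17 (SE 0.393, adjusted p = 0.00417), with 0.372 FPKM at E12.5 and 16.4 FPKM at D5. The call across birth was lost without E13.5, E14.5, E15.5, D1, D3 or D5 (adjusted p between 0.0101 and 0.0306). Cygb, the globin of fibroblast-like cells, was at 5.24 FPKM at E12.5 and 29.8 FPKM at D5 and passed neither test at 0.01. These 2 tissue globins thus stood highest when the red cell globins were lower than before birth.

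Of the 9 genes of haem and haemoglobin clearance, 2 rose and 2 fell over the embryonic days, against 14.3% and 25.0% of all genes. Cd163, the macrophage receptor for haemoglobin bound to haptoglobin, rose by 0.23 per day (adjusted p = 0.00229), from 0.0114 to 1.77 FPKM, and Blvrb, a biliverdin reductase, rose by 0.16 per day (adjusted p = 0.000656). Mfsd7b, the haem exporter, fell by 0.11 (adjusted p = 0.00387) and Hmox2, a haem oxygenase, by 0.08 per day (adjusted p = 0.00683). The call of Mfsd7b was lost without E12.5, E13.5 or E18.5 (adjusted p between 0.0101 and 0.0234), and that of Hmox2 without any 1 of the days from E13.5 to E18.5 (between 0.0124 and 0.0385). Across birth none was called at 0.01. At an adjusted p under 0.05, 4 were higher (Hmox1, Hp, Hpx and Cd163) and 1 lower (Hmox2), against 9.7% and 21.2% of all genes. Hp and Hpx encode the plasma carriers of haemoglobin and haem, which hepatocytes secrete, and were at 38.9 and 13.7 FPKM at D1 and at no more than 1.75 and 0.542 FPKM in the embryonic days. Hepatocyte markers were also high at D1, and their part in these values was not tested. Hmox1, the inducible haem oxygenase, was at 48.8 FPKM at D1, against 9.56 to 15.6 FPKM in the embryonic days.

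The D1 transcriptome stood apart in genes of other tissues. Alb, the main hepatocyte marker, was at 461 FPKM at D1 and between 1.41 and 14.6 FPKM in the embryonic days, and at 65.4 FPKM at W3. The summed level of the 10 hepatocyte markers was 1672 FPKM at D1, 34.6 to 263 FPKM in the embryonic days, 262 and 379.9 FPKM at D5 and D3, and 403 to 2404 FPKM in the postnatal weeks, where Apoa1 alone reached 2270 FPKM (W6). None of the 10 was at 0 at D1, which also held at most other timepoints, E12.5 and D3 among them. Slc4a1, the red cell membrane gene, was also higher at D1 (5.18 FPKM) than at any other timepoint. The liver makes red cells around birth, and the study's methods name liver where they describe the RNA, while the labels name stomach. The part of this in the globin values at D1 was not tested. Without D1, the difference across birth was larger for the adult globins, at -2.59 for Hba-a1 (adjusted p = 0.0175), -2.89 for Hbb-bt (adjusted p = 0.0163) and -2.58 for Hbb-bs (adjusted p = 0.0216), and -1.70 for Alas2 (adjusted p = 0.0302). Without D3, no member had an adjusted p under 0.05 (Hba-a1 at -1.40, adjusted p = 0.0793, and Hbb-bs at -1.39, adjusted p = 0.111). Without D5, Hba-a1 and Hba-a2 kept it (adjusted p = 0.0448 and 0.0437), and the other adult globins and Alas2 were between 0.0526 and 0.0814. For Alas2 it was also above 0.05 without E14.5 or E15.5 (0.0523 and 0.0579).

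The stomach markers were present throughout, with a summed level of 8 markers between 689 FPKM at E14.5 and 154978 FPKM at W6. The 5 endothelial markers summed to 67.5 to 106 FPKM in the embryonic days, 60.8 to 89.6 FPKM in the postnatal days and 21.0 to 58.5 FPKM in the postnatal weeks. Over the same periods the adult globin sum lay at 5680.4 to 12552, 849 to 4528 and 472 to 2607 FPKM. Between the weeks and the postnatal days, 0 of the 5 endothelial markers passed 0.01. At an adjusted p under 0.05, 2 were lower, Cdh5 (-1.36, adjusted p = 0.0374) and Emcn (-0.69, adjusted p = 0.0497), where 10.2% of all genes were lower. The neutrophil markers summed to 147 FPKM at D1 and to 9.17 FPKM at D5, and the platelet markers to 81.1 and 47.5 FPKM. The part of vessels or of other blood cells in the globin values was not tested. The sum of all FPKM ran from 745538 at E14.5 to 1344960 at W6, and median-ratio scaling moved the median over all genes across birth from -0.18 to 0.03. With that scaling the differences of all 9 tested members across birth stayed negative, at -1.78 for Hba-a1 (adjusted p = 0.0203) and -1.98 for Hbb-bt (adjusted p = 0.0206).

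**Figure D5:**
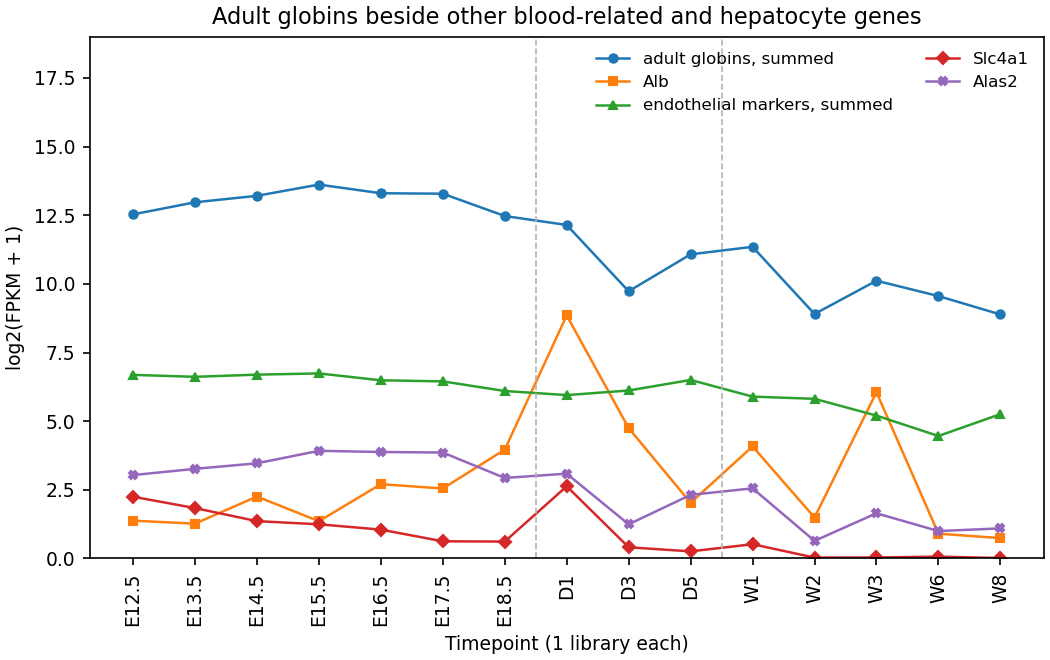
Levels as log2(FPKM + 1) at each timepoint, 1 library each, of the summed adult globins, Alb (hepatocytes), 5 summed endothelial markers, Slc4a1 (red cell membrane) and Alas2. Alb (461 FPKM) and Slc4a1 (5.18 FPKM) had their highest values at D1, while the adult globin sum at D1 (4528 FPKM) lay below every embryonic value.

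Among 12291 other symbols with an FPKM of at least 5 at some timepoint and a range of at least 3, those most like the embryonic globin sum by Pearson r over the 15 timepoints were Nepn (0.982), Fndc3c1 (0.978), Gm10664 (0.978), Lpar2 (0.974), Lsm14b (0.973), Asb4 (0.970), Traf4 (0.968) and Brinp1 (0.967). Nepn was at 40.6 FPKM at E12.5, 32.5 FPKM at E14.5, 8.12 FPKM at E15.5 and 1.02 FPKM at E18.5. Those most like the adult globin sum were Swi5 (0.941), Slc35a4 (0.939), Jmjd6 (0.937), Pa2g4 (0.936), Ccnd3 (0.934), Gcsh (0.933), Npm3 (0.931) and Pafah1b3 (0.930), all below the 0.988 of Alas2. Swi5 had 260.1 FPKM at E15.5 and 130.2 FPKM at W8, so likeness here is of shape and not of size.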

How the data were processed

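RNA of 15 stomach samples was analysed from 1 gene table per timepoint. The authors deposited FPKM values with confidence bounds for each gene entry. The submitters' notes name FastQC, Bowtie 0.12.2 and GRCm38.p2, the study's methods name HISAT2 and StringTie, and the tables have the layout of Cufflinks. Handling of reads that map to several places is not given in the sources used here. Entries with the same symbol were summed here. The 16902 symbols that reached 1 FPKM at any timepoint were tested on log2(FPKM + 1) with limma 3.58.1 in R 4.3.3, with Benjamini-Hochberg adjustment and a threshold of 0.01. One fit held the 3 periods of the labels, and another the slope over the embryonic days. A fold change on this scale understates change at low FPKM. Shares and ratios were described with bounds and without a test. The test was tried on simulated data. Positions are counted from 1. Sequences came from RefSeq (GRCm38.p6) and GENCODE M21.

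Named were all members, the genes of fixed lists called in any comparison (at most 6 a list by the difference across birth), and the 8 genes with the highest Pearson r with each globin sum. Klf1, Gata1, Cygb, Uros, Hmox1, Hp, Hpx, Alb, Apoa1, Cdh5 and Emcn are named outside that rule, after their values were seen. Members and lists were chosen with earlier results of these data known. Alternatives were another pseudocount (0.1), other FPKM limits, scalings and entries, a trend in limma, the phases of the study and leaving out each timepoint.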

Additional observations from a re-analysis of the deposited data

Results flagged for a closer look

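The embryonic share of globin FPKM at E12.5, 38.9%, stood apart from the other 6 embryonic days. Its gap to the next value, 16.4% at E13.5, was 0.580 of the range of the 7 days, above the limit of 0.568 for 7 values. It was the 1 value so marked among 28 groups of values examined, and chance marks about 1 in 20. It is the first day of a course that falls at each step to E17.5.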

How the results depend on the processing

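The falls of Hbb-y and Hba-x over the embryonic days held under all alternatives tried; that of Hbb-bh1 was lost with no filter on low values (adjusted p = 0.0178). Across birth, genes called numbered 1214, but 643 with a pseudocount of 0.1, 2342 after quantile normalization, 8164 with the phases of the study (E18.5 to W2 against E12.5 to E17.5, so other groups) and 5220 at an adjusted p under 0.05; leaving out 1 timepoint gave 22 (without D5) to 3185 (without E18.5), with 114 without D1 and 28 without D3. Between weeks and postnatal days they numbered 0, but 2 with no filter on low values and 2053 at 0.05. With the phases (W3 to W8 against E18.5 to W2) they numbered 6905, and with 1 timepoint left out 0 to 1460 (without W1). The study drew its phases by clustering these same transcriptomes, so counts with the phases are not independent of the data that made the groups. Slopes numbered 6639, and 4219 (without E13.5) to 5891 with 1 left out. The cause of these shifts was not tested.

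Across birth, Hba-a1, Hba-a2, Hbb-bs and Hbb-bt passed 0.01 after quantile normalization (adjusted p between 0.00768 and 0.00977). Between phases of the study, E18.5 to W2 against E12.5 to E17.5, all tested members except Hbb-bh1 passed it (0.00129 to 0.00497). Those phases were drawn from these same transcriptomes, so the phase result is no independent support. Uncalled differences changed sign in a few settings: the slope of Hba-a2 was 0.010 after median-ratio scaling, that of Hbb-bt was -0.0024 after quantile normalization, and weeks minus postnatal days was 0.20 for Hbb-y after quantile normalization and -0.061 for Hbb-bh1 with the phases (W3 to W8 against E18.5 to W2). With 1 embryonic day left out, the slope ran between -0.015 and 0.18 for Alas2 (called without E18.5, adjusted p = 0.00946), -0.11 and 0.079 for Hba-a1, -0.10 and 0.10 for Hba-a2, -0.037 and 0.28 for Hbb-b1, -0.0042 and 0.29 for Hbb-bs, and -0.076 and 0.19 for Hbb-bt. The beta-type embryonic share at E13.5 was 31.0% with the first entry of each symbol, and every other share stayed within its bounds. Of 301 refits of the 18 calls of list genes, 44 were no longer past 0.01. No paired analysis was possible because the samples share no animal or number across the periods.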
